A study of Mus musculus with 6 samples.

Results

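The 35 genes described here encode chaperones of the endoplasmic reticulum (ER), sensors and effectors of the unfolded protein response (UPR), and parts of ER-associated degradation and of protein entry into the ER. They were chosen by name, and all 35 were found among the 49548 genes of the expression table. All 35 were among the 26402 genes tested, and 33 of them were better-counted genes, averaging 10 or more normalized counts over the 6 libraries. The list was set up with results of these data already known, so the calls and counts below describe it and are no independent evidence about it.

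The libraries come from colonic adenomas of Col6a1-cre, Rosa26-mTmG mice on a C57/BL6 background, in which colitis-associated cancer was induced with the carcinogen azoxymethane (AOM) at 8 to 10 weeks of age and then cycles of dextran sodium sulfate (DSS). Every mouse carried both transgenes and received both agents, so there is no untreated group. In the mTmG reporter, cells turn from Tomato to GFP once Cre has been active, and after removal of cells with CD45, EpCAM, CD31 or Ter119, GFP+ cells were sorted as Col6a1+ cancer-associated fibroblasts (CAFs) and Tomato+ cells as Col6a1- CAFs, with 3 libraries of 3′ mRNA tags each. Each replicate was a pool of tumors of 5 to 6 mice. GFP marks past as well as present Cre activity, the Cre reaches mainly PDGFRa-high fibroblasts and pericytes, and the Tomato+ gate holds every other cell left after the sort.

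Each library summed to between 3039152 and 3425249 normalized counts, and 18770 to 20511 genes had a count in 5 libraries against 14530 in replicate 1 of the Col6a1+ CAFs. Fibroblast markers were present in both subsets, with 37468 to 41177 normalized counts summed over 6 genes in Col6a1+ CAFs and 6799 to 13785 in Col6a1- CAFs, and 4 of the 6 rose in Col6a1+ CAFs. All 7 mural cell markers rose as well, with sums of 50845 to 103303 against 1496 to 3828. Epithelial markers were present in spite of the EpCAM exclusion, with sums over 9 genes of 5684 to 6337 in Col6a1+ CAFs and 19505 to 31430 in Col6a1- CAFs, and 6 of the 9 fell in Col6a1+ CAFs. In each Col6a1- library the epithelial sum over 9 genes was above the fibroblast sum over 6 genes. Of 7 goblet cell markers 3 fell, with sums of 86 to 653 against 1089 to 6094. Immune markers were low, with sums over 7 genes of 92 to 276 against 201 to 287, and Ptprc, which encodes CD45, was at 2 normalized counts or fewer in Col6a1+ CAFs and at 3 to 8 in Col6a1- CAFs.

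Proteins bound for the cell surface or the matrix enter the ER through the Sec61 channel and fold there with the help of HSP70 and HSP90 chaperones, lectin chaperones, protein disulfide isomerases and prolyl isomerases. When unfolded proteins build up, the sensors IRE1, PERK and ATF6 start the UPR, which slows translation, induces chaperones through the factors XBP1 and ATF6, and induces ATF4 and CHOP through PERK. Fibroblasts secrete much collagen, whose helix needs hydroxylated prolines and the dedicated chaperone HSP47 before it can leave the ER.

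ATF6 and XBP1 act on chaperone promoters through the ER stress response element (ERSE, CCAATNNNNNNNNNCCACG) or its shorter form ERSE-II (ATTGG and CCACG with 1 base between them). The sequence from 250 bases before to 50 bases after the start of transcription (RefSeq, GRCm38.p6, the assembly known as mm10) was searched on both strands for 30 of the 35 members, and Hyou1, Manf, Ern2, Atf6 and Derl1 had no entry. ERSE was found in 8 of the 30 (26.7%), against 39 of all 32851 promoters (0.119%), and ERSE-II in 2 of the 30 (6.67%), against 12 promoters (0.0365%). The sites are shown because they mark the members that share this element, of which Derl3 and Herpud1 belong to ER-associated degradation and the others to folding, as a match of letters and not as evidence of binding. Each is written 5′ to 3′ in the direction of the motif, with 5 bases on each side and its fixed letters in capitals, and it lies on the strand of the gene in Hspa5, Canx, Pdia6, Dnajc3, Herpud1, Dnajb11 and the first site of Hsp90b1, and on the opposite strand in the others.
Hspa5, chr2:34772020-34772048: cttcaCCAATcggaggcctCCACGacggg
Hsp90b1, first site, chr10:86705633-86705661: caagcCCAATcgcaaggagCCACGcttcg
Hsp90b1, second site, chr10:86705528-86705556: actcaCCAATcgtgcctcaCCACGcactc
Calr, chr8:84847070-84847098: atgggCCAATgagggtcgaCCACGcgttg
Canx, chr11:50325795-50325823: attgaCCAATcaccacgctCCACGaagaa
Dnajc3, chr14:118937822-118937850: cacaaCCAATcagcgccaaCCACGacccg
Creld2, chr15:88819515-88819543: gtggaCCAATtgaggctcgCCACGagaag
Pdia6, chr12:17266486-17266514: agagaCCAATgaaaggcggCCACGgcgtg
Derl3, chr10:75893237-75893265: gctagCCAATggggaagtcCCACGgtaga
Herpud1, ERSE-II, chr8:94386372-94386392: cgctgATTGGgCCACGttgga
Dnajb11, ERSE-II, chr16:22857847-22857867: cggcgATTGGcCCACGcctgg

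The UPR element TGACGTGG was in no member's window and in 0.676% of all promoters, and the amino acid response element TGATGNAA, a site of ATF4 and CHOP, was in those of Herpud1 and Trib3 and in 3.97% of all promoters. No 2 of these sites overlapped.

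The comparison of the subsets asked whether Col6a1+ CAFs, which include fibroblasts and pericytes, differ in this machinery from the sorted Tomato+ cells. The Col6a1- libraries held epithelial as well as fibroblast markers. Of the 35 members 1 rose (Serpinh1) and 1 fell (Eif2ak3) in Col6a1+ CAFs at an adjusted p under 0.05 in limma, that is 5.71% of them beside 4.62% of all genes tested. This fit took the 6 libraries as independent, without the replicate number as a block. With that block over the same genes, 0 members and 0 of all genes tested were called, so both calls depend on leaving it out. With the block among the better-counted genes, 3 of 33 members were called, beside 13.7% of those genes. By direction, 2.66% of all genes rose and 1.96% fell. Among the 13515 better-counted genes 8.82% were called, and among the 33 better-counted members 6.06%. With the criterion of an unadjusted p under 0.05 plus a log2 fold change beyond 1 in size, 5 members passed (Serpinh1 and Sel1l higher, Eif2ak3, Ern2 and Ero1l lower), beside 14.7% of all genes. The median log2 fold change of the members was -0.04, that of all genes tested -0.27 and that of the better-counted genes -0.15, where a positive value is higher in Col6a1+ CAFs and values are on a log2 scale with 1 added to each normalized count. In size, 25 members had an absolute log2 fold change under 0.5 and 6 one over 1. The median absolute value was 0.39, also over the 33 better-counted members, beside 0.68 for all better-counted genes. Members and other genes were not matched by level. In bulk libraries, fewer cells of a type and less RNA per cell cannot be told apart.

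**Figure D1:**
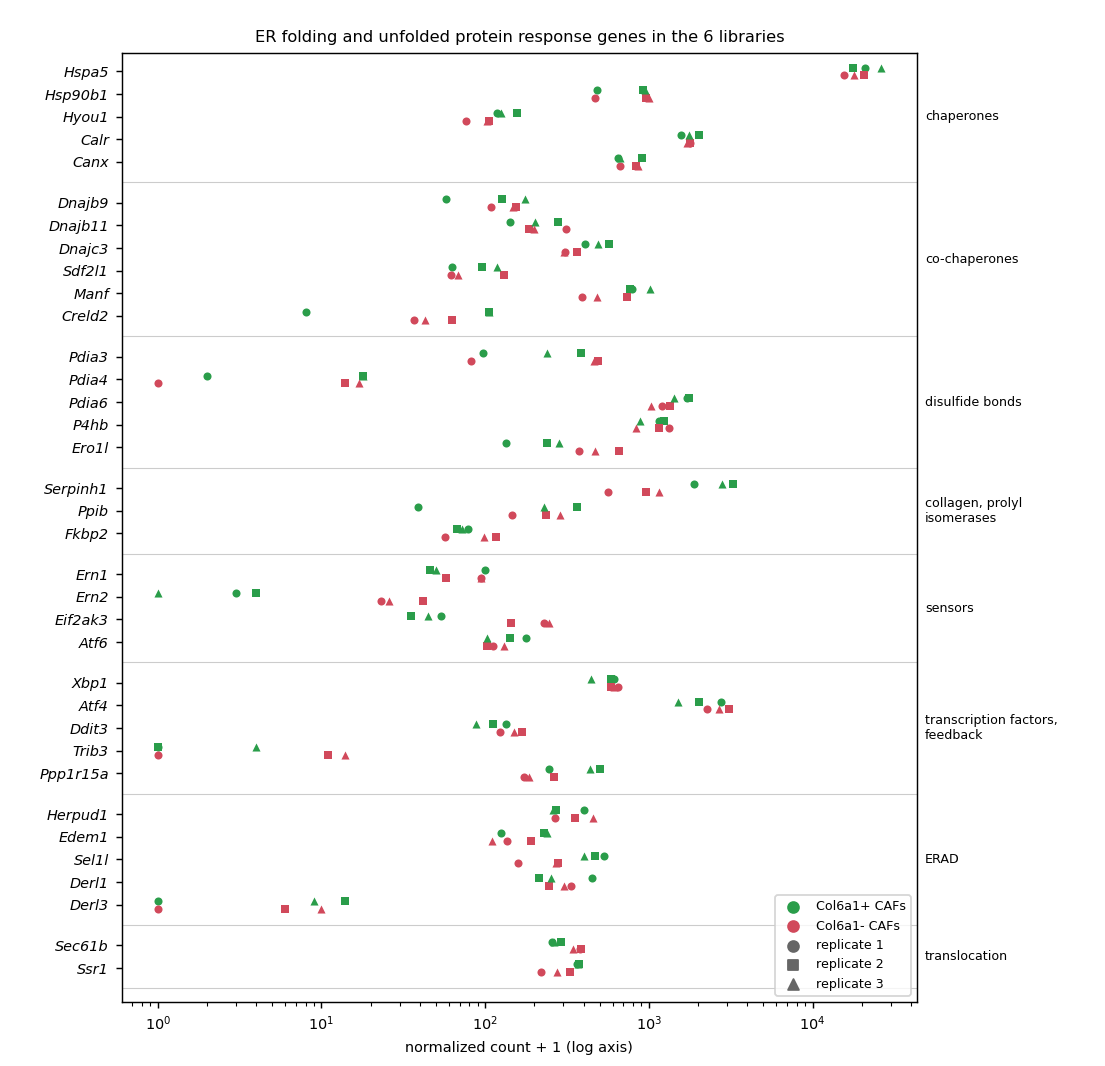
Normalized count plus 1 (log axis) of the 35 members in the 6 libraries, with Col6a1+ CAFs in green, Col6a1- CAFs in red and the marker shape giving the replicate. The colours overlap for 24 members and stand apart for 11, with green above red in Hyou1, Dnajc3, Manf, Pdia6, Serpinh1, Sel1l and Ssr1 and below it in Ero1l, Ern2, Eif2ak3 and Sec61b.

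Summed over the 35 members, the libraries gave 1.10%, 1.14% and 1.23% of all normalized counts in replicates 1 to 3 of the Col6a1+ CAFs, and 0.940%, 1.13% and 1.02% in those of the Col6a1- CAFs. The ranges overlapped, and the means differed by 0.126 percentage points. A single gene, Hspa5, held 0.509% to 0.764% of each library, and without it the means differed by 0.0402 percentage points.

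The general chaperones showed no called difference. Hspa5 encodes BiP, the HSP70 of the ER that also holds the sensors inactive, and had 20933, 17606 and 26173 normalized counts in replicates 1 to 3 of the Col6a1+ CAFs and 15483, 20628 and 17941 in the Col6a1- CAFs. These ranges overlap, and the log2 fold change of 0.25 ± 0.31 (SE) had a 95% confidence interval from -0.45 to 0.95. Calr and Canx, the lectin chaperones of glycoproteins, had log2 fold changes of 0.01 ± 0.25 and -0.10 ± 0.28, and Hsp90b1, the HSP90 of the ER, one of -0.04 ± 0.39. The sign for Calr turned, to -0.039 with scaling by library size and to -0.040 with limma-voom. Hyou1, which exchanges nucleotide on BiP, had 117, 156 and 124 normalized counts against 75, 104 and 102. Its Col6a1+ libraries all lay above the others, but the difference of 0.50 ± 0.36 was not called (adjusted p = 0.567). Across the 5 genes, none had an unadjusted p under 0.05, which 16.0% of all genes tested had.

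The co-chaperones held 6 members and no call, with 1 (Manf) at an unadjusted p under 0.05. Dnajc3 encodes a J-domain partner of BiP and had 405, 571 and 489 normalized counts in Col6a1+ CAFs against 305, 364 and 301 in Col6a1- CAFs. Manf encodes a small secreted protein that binds BiP and had 784, 770 and 1013 against 392, 734 and 482. In both genes every Col6a1+ library was above every Col6a1- library, by 0.58 ± 0.28 (adjusted p = 0.350) and 0.71 ± 0.31 (adjusted p = 0.288) on the log2 scale. Manf overlaps Rbm15b on the same strand, which had 62 to 84 normalized counts in Col6a1+ CAFs and 112 to 150 in Col6a1- CAFs, the opposite order. The J-domain proteins Dnajb9 and Dnajb11, the Dnajb11 partner Sdf2l1 and the secreted Creld2 overlapped between the subsets, with log2 fold changes from -0.32 to 0.12. Creld2 had 7 normalized counts in replicate 1 of the Col6a1+ CAFs against 104 and 105 in the others, and its log2 fold change went from -0.06 to 1.18 without that library.

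Among the enzymes of disulfide bond formation, Ero1l, the oxidase that recharges protein disulfide isomerases, stood apart in the direction of the Col6a1- CAFs. It had 133, 238 and 280 normalized counts in Col6a1+ CAFs and 375, 655 and 468 in Col6a1- CAFs, without overlap. The log2 fold change of -1.23 ± 0.37 was not called (adjusted p = 0.0968, and 0.120 once the replicate number entered as a block), but it was called with the block among the better-counted genes (adjusted p = 0.0249). The isomerases did not share this order. Pdia6 had 1718, 1757 and 1422 against 1201, 1347 and 1028, all Col6a1+ libraries above the others, at 0.46 ± 0.26 (adjusted p = 0.434). P4hb, which is both an isomerase and the second subunit of the collagen prolyl hydroxylase, had a log2 fold change of -0.01 ± 0.29, and Pdia3 and Pdia4 overlapped between the subsets. Pdia4 was near the floor of 3 normalized counts in replicate 1 of both subsets, with 1 and 0, against 13 to 17 elsewhere.

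Serpinh1 was the member that rose. It encodes HSP47, the chaperone that binds folded procollagen, and lies at chr7:99345376-99353239 (mm10, ENSMUSG00000070436). It had 1880, 3258 and 2801 normalized counts in Col6a1+ CAFs (2646 ± 702, SD, n = 3) and 558, 954 and 1152 in Col6a1- CAFs (888 ± 302, SD, n = 3). The lowest Col6a1+ library was above the highest Col6a1- library, and replicate 1 was the lowest of both subsets. The log2 fold change was 1.60 ± 0.34 (SE, adjusted p = 0.0258), with adjusted p = 0.0612 under the replicate block and 0.00482 under the block among the better-counted genes, of which 13.7% were called. Over all genes tested the block called no gene. Without any single library the log2 fold change lay between 1.30 and 1.83 and was no longer called. In these fits limma called 264 or fewer of all genes tested, against 1220 with all 6 libraries. The fibroblast and mural markers given above moved in the same direction, as did the collagen genes among them (Col1a1 by 2.21, Col1a2 by 2.50 and Col3a1 by 1.81 on the log2 scale), and their part in the difference of Serpinh1 was not tested. The prolyl isomerases Ppib, which acts on collagen, and Fkbp2 had log2 fold changes of -0.53 ± 0.70 and -0.26 ± 0.42, and their libraries overlapped.

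Of 10 genes called outside the members, 7 were in 1 list. Of the enzymes and partners of collagen hydroxylation and isomerization, 9 of 10 listed were in the table, all 9 had every Col6a1+ library above every Col6a1- library, and 7 rose (P4ha1, P4ha2, Crtap, P3h1, Fkbp7, Fkbp9 and Fkbp10), with a median log2 fold change over the 9 of 2.06. Over all genes tested, 7.91% lay higher without overlap and 2.66% rose. Their summed normalized counts were 2242, 2176 and 3417 in Col6a1+ CAFs and 589, 699 and 342 in Col6a1- CAFs. P4ha3 and Fkbp14 also lay higher, by 3.19 ± 0.91 and 2.05 ± 0.63, at adjusted p = 0.0830 and 0.105. Fkbp14, with 102, 82 and 44 normalized counts against 15, 33 and 9, overlaps Plekha8 on the opposite strand. Plekha8 had 126, 74 and 53 against 67, 86 and 57. The largest difference among the 7 was that of Fkbp9, an ER prolyl isomerase, with 773, 581 and 1532 normalized counts against 170, 193 and 73 (2.71 ± 0.46, adjusted p = 0.00898). P4ha1, the catalytic subunit whose partner is the P4hb product, had 146, 192 and 152 against 23, 55 and 47 (2.02 ± 0.44, adjusted p = 0.0283). The catalytic subunits P4ha1 and P4ha2 rose, while their partner P4hb had 1157, 1237 and 883 normalized counts against 1324, 1153 and 838. Crtap, part of the prolyl 3-hydroxylase complex, rose by 2.06 ± 0.41, and Fkbp7 and Fkbp10 rose by 2.51 ± 0.59 and 2.22 ± 0.40, where Fkbp10 overlaps Nt5c3b on the opposite strand (13 to 49 normalized counts in all libraries). With the replicate block alone none of the 7 kept its call (adjusted p from 0.0835 to 0.141), and no gene of the whole table was called. Leaving out 1 library left at most 1 call in all pathway genes, and 264 or fewer among all genes tested. The same fibroblast and mural markers moved with this group, and their part in it was not tested.

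**Figure D2:**
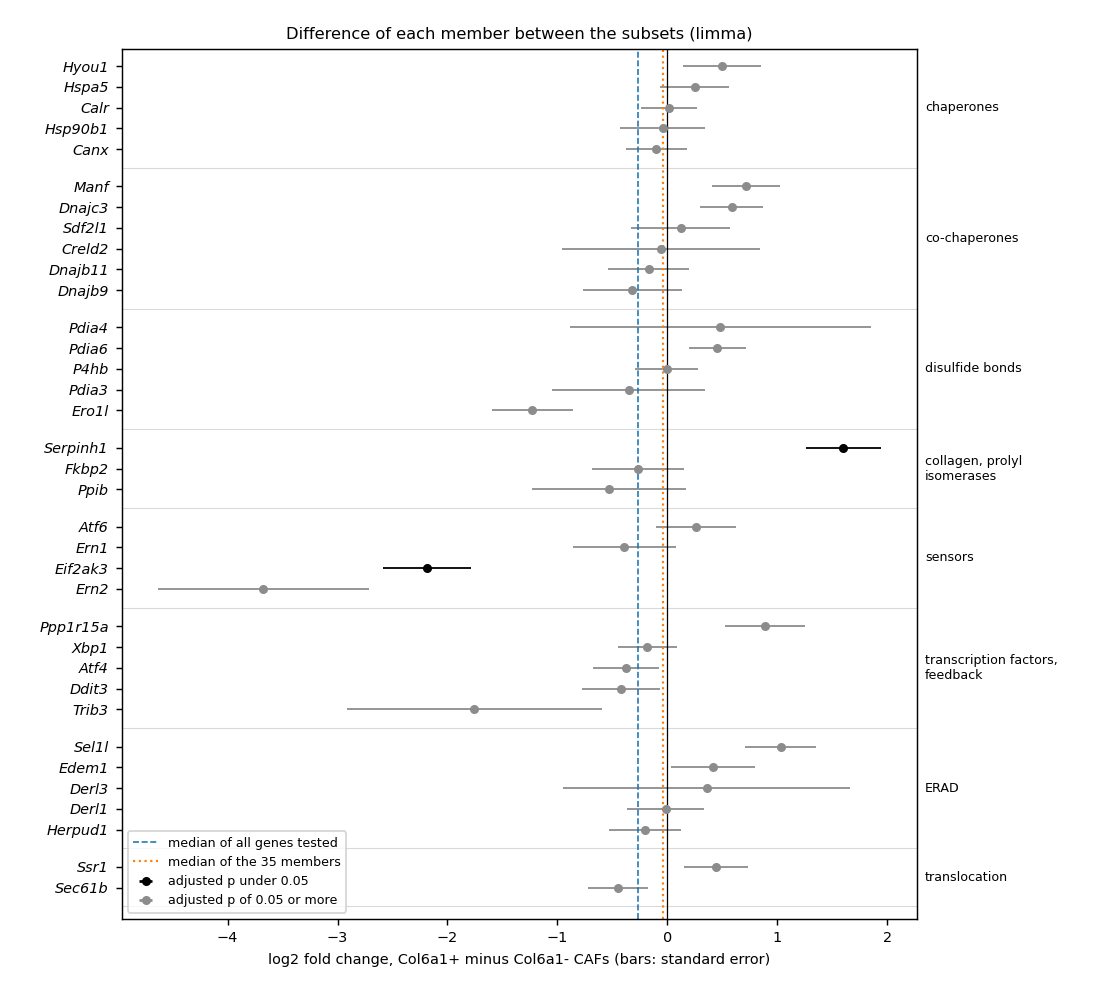
Log2 fold change of each member between Col6a1+ and Col6a1- CAFs with its standard error (limma, 3 libraries a group), ordered within its role, with called members in black. Most members lie within 0.5 of 0, Serpinh1 is at 1.60, and Eif2ak3 is at -2.19. The fitted point of Ern2 depends on the added count of 1, since its Col6a1+ libraries are at or under the floor of 3.

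The stress sensors differed among themselves. Eif2ak3 encodes PERK, the kinase that phosphorylates eIF2a and so slows translation, and was the member that fell (chr6:70844515-70905245, ENSMUSG00000031668). It had 53, 34 and 44 normalized counts in Col6a1+ CAFs (43.7 ± 9.50, SD, n = 3) and 227, 142 and 245 in Col6a1- CAFs (204.7 ± 55.0, SD, n = 3), with no overlap. The log2 fold change was -2.19 ± 0.40 (SE, adjusted p = 0.0128), at adjusted p = 0.0662 under the replicate block and 0.00733 under the block among the better-counted genes. Over all genes tested the block called no gene. Without any single library the log2 fold change lay between -2.43 and -2.02 and lost its call. In these fits limma called 264 or fewer of all genes tested, against 1220 with all 6 libraries. The small gene Gm23346 lies within Eif2ak3 on the same strand and had 0, 9 and 13 normalized counts against 4, 42 and 112.

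Ern2 encodes IRE1b, the form of IRE1 found in epithelia of the gut and airways, and had 2, 3 and 0 normalized counts in Col6a1+ CAFs against 22, 41 and 25 in Col6a1- CAFs (chr7:122169893-122186207). All Col6a1+ libraries were at or under the floor of 3 normalized counts per library, and the Col6a1- mean of 29.3 was 9.78-fold that floor. The 95% confidence interval of the fitted log2 fold change ran from -5.80 to -1.55. Ern2 was not called in limma (adjusted p = 0.0587, and 0.117 under the replicate block), and was called with limma-voom (adjusted p = 0.0148) and when tested among the better-counted genes alone (adjusted p = 0.0429). Ern1, which encodes the widely expressed IRE1a, had 99, 45 and 49 normalized counts against 93, 57 and 94, and Atf6, the sensor that is itself cut into a transcription factor, had 176, 141 and 101 against 110, 101 and 130. Both overlapped between the subsets, with log2 fold changes of -0.39 ± 0.47 and 0.26 ± 0.36 (adjusted p = 0.642 and 0.690). Epithelial and goblet cell markers, given above, moved with Eif2ak3 and Ern2, among them Epcam by -2.12 and Muc2 by -3.45 on the log2 scale, and their part in these differences was not tested.

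The factors downstream of the sensors overlapped between the subsets, and none was called. Xbp1, whose mRNA IRE1 splices, had 445 to 610 normalized counts in Col6a1+ CAFs and 586 to 646 in Col6a1- CAFs, and 3′ tags do not tell its spliced from its unspliced form. Atf4, which is translated when PERK is active, had 1511 to 2766 against 2251 to 3077, at -0.37 ± 0.30. Ddit3, the gene of CHOP, had 87 to 133 against 122 to 168, at -0.42 ± 0.35, and it overlaps Mars on the opposite strand. Trib3, a target of ATF4 and CHOP, was at 0, 0 and 3 normalized counts against 0, 10 and 13, with a zero in each subset. Ppp1r15a encodes GADD34, which brings a phosphatase to eIF2a and so undoes the step of PERK, and had 243 to 505 against 171 to 264. Its log2 fold change of 0.89 ± 0.36 had the opposite sign to that of Eif2ak3 and was not called (adjusted p = 0.243, unadjusted p = 0.0326).

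In the remaining genes of UPR sensing and response, 1 of 14 rose and 1 fell, beside 2.66% and 1.96% of all genes tested. Nupr1, a small stress-induced nuclear protein, fell from 864, 1138 and 1853 normalized counts in Col6a1- CAFs to 311, 337 and 277 in Col6a1+ CAFs (-1.99 ± 0.33, adjusted p = 0.00747, and 0.0796 under the replicate block). Under that block no gene of the whole table was called. The lowest Col6a1- library was above all Col6a1+ libraries, and the epithelial markers moved the same way, whose part in this was not tested. Cebpb, a transcription factor and partner of CHOP, rose by 1.89 ± 0.45 (adjusted p = 0.0390, and 0.0770 under the replicate block). Of 12 genes induced by cell dissociation 3 also rose, and their part in the difference of Cebpb was not tested.

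The genes of ER-associated degradation, by which misfolded proteins are returned to the cytosol, held 5 members and no call, with 1 at an unadjusted p under 0.05. That gene was Sel1l, the partner of the ubiquitin ligase HRD1, with 532, 471 and 399 normalized counts in Col6a1+ CAFs and 157, 276 and 269 in Col6a1- CAFs. All Col6a1+ libraries were above the others, by 1.03 ± 0.32 on the log2 scale, at adjusted p = 0.115. Edem1, a lectin that sends glycoproteins to degradation, the HRD1 partner Herpud1, and the channel proteins Derl1 and Derl3 overlapped, with log2 fold changes from -0.20 to 0.42. Of 11 further genes of this pathway, among them Syvn1, which encodes HRD1 itself, none was called, 1 had an unadjusted p under 0.05, and their median was -0.11.

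For entry into the ER, the members Sec61b and Ssr1 went in opposite directions. Sec61b, a subunit of the channel, had 256, 289 and 261 normalized counts in Col6a1+ CAFs and 379, 382 and 341 in Col6a1- CAFs, at -0.45 ± 0.28. Ssr1, of the translocon-associated complex, had 364, 371 and 369 against 219, 329 and 274, at 0.44 ± 0.29. Neither gene overlapped between the subsets and neither was called (adjusted p = 0.480 and 0.519). Of 19 other genes of translocation, signal peptide cleavage and N-glycosylation, 1 fell and none rose, with a median of -0.10. Over all genes tested, 1.96% fell and 2.66% rose. The gene of this list that fell was Sec11c, a catalytic subunit of the signal peptidase, with 186, 164 and 101 normalized counts against 465, 375 and 467. Its log2 fold change was -1.57 ± 0.33 (adjusted p = 0.0245, and 0.106 under the replicate block, which called no gene of the whole table). The epithelial markers moved in the same direction, and their part in it was not tested. The remaining 14 genes of folding and disulfide bond formation held no call, with 5 at an unadjusted p under 0.05 (16.0% of all genes) and a median of 0.24.

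**Figure D3:**
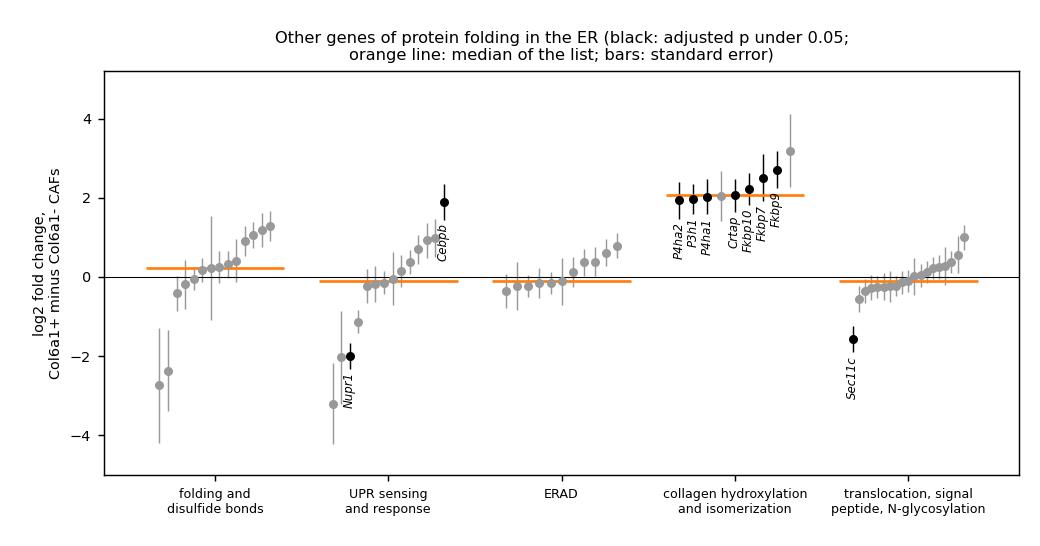
Log2 fold change between Col6a1+ and Col6a1- CAFs, with its standard error, of 67 genes of ER folding outside the 35 members, in 5 lists, with called genes named in black and the median of each list in orange. The 9 genes of the collagen list lie between 1.93 and 3.19, and the medians of the other 4 lists lie between -0.11 and 0.24.

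Over all lists, 67 of 69 genes outside the members were in the table, 8 rose and 2 fell (14.9% called). Outside the collagen list, 1 of 58 rose and 2 fell (5.17%), with a median log2 fold change of -0.01, beside the 4.62% called among all genes.

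Separation of the libraries was more common than calls. In 11 of the 35 members (31.4%) the subsets did not overlap, 7 with the Col6a1+ libraries higher (Hyou1, Dnajc3, Manf, Pdia6, Serpinh1, Sel1l and Ssr1) and 4 with them lower (Ero1l, Ern2, Eif2ak3 and Sec61b). Of all genes tested, 19.5% did not overlap, 7.91% with the Col6a1+ libraries higher and 11.6% with them lower, and of the better-counted genes 31.7% did not overlap. The 10 members with an ERSE or ERSE-II site had log2 fold changes from -0.20 to 0.58, with a median of -0.01 and no call, and the 20 with a promoter but neither site had values from -2.19 to 1.60, a median of -0.29 and both calls. Serpinh1 and Eif2ak3 held none of the 4 motifs in their windows.

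Replicate 1 was the lowest library of both subsets for a part of the members. Of the 33 better-counted members, 13 were at their lowest in replicate 1 of Col6a1+ CAFs and also in replicate 1 of Col6a1- CAFs (39.4%, beside 21.0% of the 13515 genes), and 2, Xbp1 and Derl1, were at their highest in both (6.06%, beside 18.1%). The 13 were Hsp90b1, Hyou1, Canx, Dnajb9, Sdf2l1, Creld2, Pdia3, Pdia4, Ero1l, Serpinh1, Ppib, Ppp1r15a and Ssr1. Hsp90b1 had 479 normalized counts in replicate 1 of the Col6a1+ CAFs against 916 and 942, and 469 in replicate 1 of the Col6a1- CAFs against 960 and 1004. Pdia3 had 96 against 386 and 238, and 81 against 490 and 460. In both genes replicate 1 stood below the other libraries of its own subset by more than the subsets differed. This comparison was made after the values were seen, and it rests on 1 library of each subset. Replicate 1 of the Col6a1+ CAFs was also the library with the fewest genes detected, and the part of this in the pattern was not tested. Without replicate 1 of both subsets, the members had a median log2 fold change of 0.09, and 11 of 35 had an unadjusted p under 0.05, beside 19.8% of all genes. In that fit limma called no gene of the whole table.

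**Figure D4:**
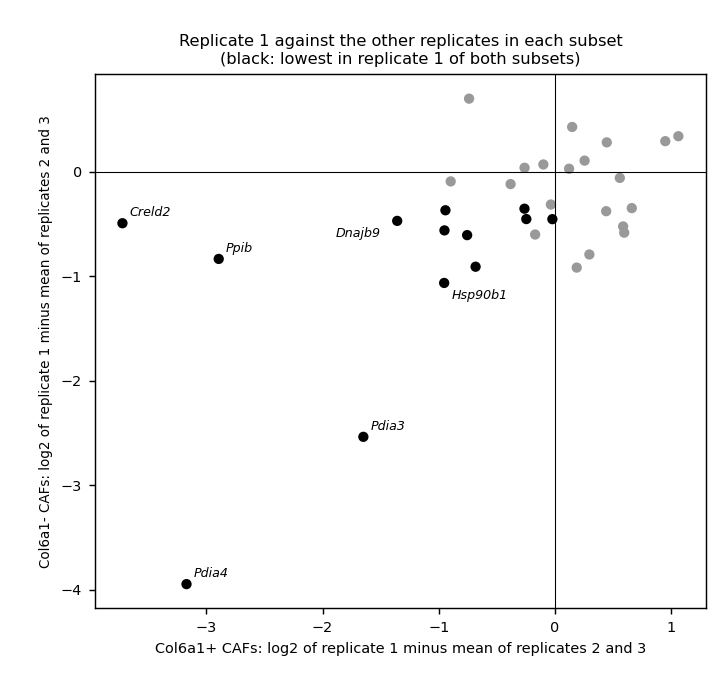
Log2 of replicate 1 minus the mean of replicates 2 and 3 for the 33 better-counted members (10 or more normalized counts on average), in Col6a1+ CAFs (horizontal) and Col6a1- CAFs (vertical). The 13 members in black are lowest in replicate 1 of both subsets and lie in the lower left quadrant, with Pdia3 at -1.65 and -2.54.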

How the data were processed

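The 6 libraries were prepared by the study's authors with a 3′ mRNA kit (QuantSeq) and sequenced on an Ion Proton. The authors mapped reads with TopHat2 and, for the rest, Bowtie2 to mm10, obtained counts per gene by GenomicRanges and scaled these by DESeq through metaseqR. The authors deposited the log2 of the normalized count plus 1 for each gene and library, which are whole normalized counts, so that reads could not be recovered. Their p-values, false discovery rates and log2 fold changes, and 6 further columns of per-sample values, were not used. Whether counting used strand is not given in the sources used here, so overlapping genes may share reads.

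The labels gave the group and replicate number of each library. A linear model of the 2 subsets was fitted by limma 3.58.1 (R 4.3.3) to the deposited log2 values (pseudocount 1) of the 26402 genes with at least 1 normalized count in all, with a trended eBayes (6.48 prior degrees of freedom, 4 residual), with Benjamini-Hochberg adjustment and calls at an adjusted p under 0.05. The p-values measure the spread between these pools. Normalized counts of 3 or fewer were read as the floor, and a ratio against it covers counting error only. The script was tested on simulated data. Plots and promoter searches used Python 3.11.15, pandas 2.3.3, NumPy 2.4.6, SciPy 1.17.1 and Matplotlib 3.10.9.

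The members and lists were chosen with earlier results of these data known. Values per library were printed for members that were called or did not overlap and for the 4 sensors. From the other lists, up to 5 genes a direction were chosen, those called with the largest differences and a mean of 10 or more. For Crtap, Fkbp7 and Fkbp10 among these only the log2 fold change was given. Other values, the ERSE windows and the comparison of replicate 1 were added after the values were seen. Ero1l was matched to its promoter by a synonym.

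Deviations from the group means over 13515 genes correlated between libraries of the same number (r = 0.245, 0.126 and 0.144 for numbers 1 to 3). Since each exceeded 0.1, the numbers were read as pairs. This cutoff cannot show that they are pairs, because r reached 0.150 for Col6a1+ replicate 2 with Col6a1- replicate 3. That is above the values for numbers 2 and 3. For other unlike numbers r was as low as -0.245. The fit behind the calls did not use these pairs, which entered only as the replicate block. Alternatives were scaling by library size, only the better-counted genes (a mean of 10 or more), no filter, a pseudocount of 0.1, limma-voom, the replicate block in all genes and in the better-counted ones, a criterion of unadjusted p under 0.05 and absolute log2 fold change over 1, and leaving out each library.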

Additional observations from a re-analysis of the deposited data

How the results depend on the processing

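The number of called members depended on how the test was set up. The main fit called 2 of 35, beside 1220 of 26402 genes. Scaling by library size and a pseudocount of 0.1 each gave 2, beside 1344 and 897 genes. Limma-voom gave 3, beside 1810 of 26402 genes. Among the better-counted genes (a mean of 10 or more) it was 3 of 33, beside 1423 of 13515. The replicate block among these also gave 3 of 33, beside 1852 of 13515. At an unadjusted p under 0.05 and absolute log2 fold change over 1 it was 5 of 35, beside 14.7% of all genes. It was 0 with no filter, with the replicate block, in each fit without 1 library and without replicate 1 of both subsets. In these fits 264 or fewer of all genes were called. At an unadjusted p under 0.05 limma gave 7 of 35 members (beside 16.0% of all genes and 24.8% of the better-counted ones), 8 with no filter, 8 with the block and 5 to 10 without 1 library. For the other pathway genes, 10 became 0 with no filter, 0 with the replicate block, 14 with the block among the better-counted genes, 18 at the unadjusted criterion, 0 to 1 without 1 library and 0 without replicate 1 of both subsets. At an unadjusted p under 0.05 every setting gave 19 to 21 of them, beside 7.66% (no filter) to 28.4% of all genes. The latter share was that of the block among the better-counted genes, where 29.7% of the pathway genes passed. Over all genes tested, the 1220 calls became 28 with no filter, 0 with the block, 0 in 4 of the 6 fits without 1 library, 264 without Col6a1- replicate 2, 188 without Col6a1- replicate 3, 0 without replicate 1 of both subsets and 1852 with the block among the better-counted genes. The difference in the share of counts was 0.0402 percentage points without Hspa5 and 0.0800 to 0.176 without 1 library.

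Serpinh1 and Eif2ak3 kept their direction in every setting, with adjusted p from 0.00482 to 0.262 and from 0.00733 to 0.161. Calr turned to -0.039 with scaling by library size and -0.040 with limma-voom, and 12 members changed sign without some library. Their log2 fold changes then ranged from -0.40 to 0.28 for Hsp90b1, -0.081 to 0.10 for Calr, -0.66 to 0.13 for Dnajb9, -0.41 to 0.076 for Dnajb11, -0.079 to 0.46 for Sdf2l1, -0.68 to 1.18 for Creld2, -1.20 to 0.20 for Pdia3, -0.83 to 1.54 for Pdia4, -0.19 to 0.14 for P4hb, -1.18 to 0.43 for Ppib, -0.33 to 0.20 for Derl1 and -0.63 to 1.52 for Derl3. The cause was not tested. Without replicate 1 of both subsets, chosen after seeing the data, the values were 0.31 for Dnajb11, 1.02 for Creld2, 0.088 for P4hb and 0.15 for Ppib. With 3 pools a group and normalized counts of unknown depth, a member with few counts, such as Pdia4, Derl3 or Trib3, has a standard error over 1.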

Other observations

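Of the 14 other genes of UPR sensing and response, 4 lay lower in all Col6a1+ libraries (11.6% of all genes tested did), namely Nupr1 and the uncalled Atf3, Chac1 and Asns, which are named here after their values were seen. Atf3, a stress-induced transcription factor, had 808, 663 and 568 normalized counts in Col6a1+ CAFs against 1712, 1158 and 1600 in Col6a1- CAFs (log2 fold change -1.13 ± 0.28, adjusted p = 0.0505 in limma). Chac1, which breaks down glutathione, had 0, 0 and 4 against 15, 19 and 11 (adjusted p = 0.123), and Asns, the asparagine synthetase, had 0, 21 and 23 against 24, 38 and 36 (adjusted p = 0.440). Sesn2 of the same list overlapped, with 46, 18 and 15 against 33, 22 and 19, as did the members Ddit3 and Trib3. The epithelial markers were also lower in Col6a1+ CAFs (6 of 9 fell), and their part in these values was not tested. Of the 14 other genes of folding and disulfide bond formation, Pdia5, Hspa13, Dnajc10 and Cnpy3 lay higher in all Col6a1+ libraries (7.91% of all genes did), with log2 fold changes of 0.92 to 1.29 and adjusted p from 0.0899 to 0.256. Sil1, which exchanges nucleotide on BiP, was listed at 0 in replicate 1 of the Col6a1+ CAFs and at 69 to 181 in the other 5 libraries.

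Of 12 genes induced by cell dissociation, 3 rose in Col6a1+ CAFs (Hspa1a, Hspa1b and Nr4a1), with sums over the list of 55130 to 72448 normalized counts against 31781 to 38011. Hspa1a and Hspa1b encode cytosolic HSP70 and rose by 1.61 ± 0.27 and 1.85 ± 0.28 on the log2 scale, beside 0.25 ± 0.31 for Hspa5. The plasma cell markers Tnfrsf17 and Pou2af1 were at 0 in every library, and Jchain was at 0, 3 and 0 against 6, 20 and 10. No plasma cell marker was called of 4 tested, with 2 at an unadjusted p under 0.05. Of 5 endothelial markers 1 rose (Tie1, with 220, 56 and 152 normalized counts against 1, 7 and 21). The other 4 had negative log2 fold changes and were not called. Sums over the 5 were 110 to 342 against 115 to 276.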
